A study of Mus musculus with 24 samples.

Results

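Heat shock proteins and their cochaperones were followed in mouse liver across 4 diets, a control and others with rising doses of quercetin. The set was taken by gene symbol from a list of 36 genes: HSP70, HSP110, HSP90 and small heat shock proteins, the J proteins and BAG proteins that work with HSP70, cochaperones of HSP90, and the heat shock factors Hsf1 and Hsf2. Of these, 34 had a probe set assigned to a single gene and were measured among 18193 genes in all. Hsp90ab1 and Hsf1 were not analysed here. The list is mostly cytosolic, but Hspa9, Hspd1, Hspe1 and Dnaja3 encode chaperones of mitochondria and are described separately.

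Molecular chaperones bind proteins that are unfolded or still being made and keep them from aggregating. HSP70 does this in cycles of ATP use, started by J proteins and ended by nucleotide exchange factors such as the HSP110 and BAG proteins, and it hands some clients to HSP90. When unfolded proteins accumulate, the transcription factor HSF1 binds heat shock elements, repeated GAA units in alternating orientation, and drives the inducible members. In liver, a tissue that makes and secretes much protein, the constitutive HSP70 Hspa8 and the mitochondrial chaperones are abundant, while Hspa1a and Hspa1b are the classical inducible HSP70 genes.

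The livers came from male BALB/c mice that were 6 weeks old on arrival. All mice ate the purified diet AIN93G for 14 days, with no quercetin in the control group and with 0.1%, 0.5% or 1.0% quercetin, a plant flavonol, in the others. Each group had 6 mice and each mouse had 1 Affymetrix array, so the small numbers of mice and cages limit the precision. The mice were housed 3 per cage, dark by day from morning to evening and light at night, and were killed under pentobarbital anesthesia. An effect of cage cannot be told apart from that of diet here. The standard errors and p-values treat all mice as independent, so any likeness of cage mates is left out of them. Values are quantile-normalized log2(intensity + 1), differences between groups are on that log2 scale with the standard error (SE) from limma over all 24 arrays, and adjusted p-values are Benjamini-Hochberg over all 18193 genes, with 0.05 as the threshold.

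The hepatocyte markers Alb, Ttr, Apoa1 and Cyp2e1 had signals above those of 99.9% of all genes, as in liver. Array medians of the deposited intensity ran from 4.78, in control replicate 2, to 7.58. On the first principal component of all genes, which held 9.15% of the variance, replicates 4 and 6 of the 0.5% group and replicates 4 and 5 of the 1.0% group stood apart. The signal of 18S ribosomal RNA was high in replicate 1 of the 0.5% group and replicate 6 of the 1.0% group, at 11.05 and 10.12 for its 3′ probe set. The counts of members are given with and without control replicate 2 and these 4 arrays.

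Promoter windows of 300 bases around an annotated start, from the RefSeq table for GRCm38.p6, were found for 30 members. Stretches of 150 bases just before the start are shown for 5 of them, because the results below turn on how these genes moved together or apart. Capitals mark the 2-unit heat shock element, searched as GAANNTTC and as TTCNNGAA. The inducible Hspa1b (chr17:34959239-34959388, minus strand) has 1 match that begins 104 bases before the start. Hsph1 (chr5:149636337-149636486, minus strand) has 1 that begins 33 bases before its start. Its window holds further matches that begin 36 and 41 bases after the start, outside the stretch shown, and the window of its other annotated start holds the same matches. Dnaja1 (chr4:40722318-40722467, plus strand) has 1 at 124 bases in the window shown, and 0 in the windows of its other annotated starts. Hspb1 (chr5:135887769-135887918, plus strand) has matches at 117 and 97 bases. Dnajb1 (chr8:83608025-83608174, plus strand) has none in this window or in that of its other start.
Hspa1b: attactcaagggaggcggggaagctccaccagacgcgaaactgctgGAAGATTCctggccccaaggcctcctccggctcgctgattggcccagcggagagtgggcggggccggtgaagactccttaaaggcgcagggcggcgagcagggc
Hsph1: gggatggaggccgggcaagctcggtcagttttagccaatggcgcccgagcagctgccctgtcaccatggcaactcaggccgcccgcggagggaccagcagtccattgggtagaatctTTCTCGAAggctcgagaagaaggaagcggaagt
Dnaja1: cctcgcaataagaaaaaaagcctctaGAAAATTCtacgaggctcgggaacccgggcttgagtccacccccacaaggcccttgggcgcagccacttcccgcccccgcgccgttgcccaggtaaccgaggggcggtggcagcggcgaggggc
Hspb1: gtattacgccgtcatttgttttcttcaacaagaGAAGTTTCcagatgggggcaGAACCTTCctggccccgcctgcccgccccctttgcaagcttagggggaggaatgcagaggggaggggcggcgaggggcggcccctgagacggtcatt
Dnajb1: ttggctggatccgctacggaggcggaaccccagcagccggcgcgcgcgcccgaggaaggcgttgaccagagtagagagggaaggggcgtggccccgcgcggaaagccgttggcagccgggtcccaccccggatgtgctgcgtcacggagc

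Over all windows, 15 of the 30 members held at least 1 element of 2 units, against 17.0% of the 27025 genes in the table. The longer element of 3 units, the same pattern carried on by 1 more unit on either strand, contains 2-unit matches and was in 5 of the 30 (Chordc1, Dnajb6, Hspd1, Hspe1 and Hsph1), against 0.662% of all genes. In Hspd1 and Hspe1, neighbours transcribed in opposite directions, the windows overlap and hold the same matches. The windows of Hspa1a and Hspa1b were identical at 296 of 300 bases. These genes are near-identical copies whose probe signals may be shared, so their values are uncertain as to the copy. A match here is a description of the letters and was not tested as a binding site.

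The median of the members was lowest at 0.1% and highest at 0.5% quercetin, and that pair of doses held the only call among them. Hspa8, the constitutive HSP70, was 2.13-fold higher at 0.5% than at 0.1% (log2 difference 1.09, SE 0.22, adjusted p = 0.0424 in limma). It was the 1 member of 34 to pass in this comparison, in which 0.214% of all genes passed. No member passed against control at 0.1%, 0.5% or 1.0%, where 0%, 0.0165% and 0.022% of all genes passed, nor between 1.0% and 0.1% (0.253%) or 1.0% and 0.5% (0.022%). None passed for any difference among the 4 diets (0.181% of all genes) or for the slope over dose (0.0989%), with smallest adjusted p-values of 0.119 and 0.297.

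At an unadjusted limma p under 0.05, 14 of 34 members differed between 0.5% and 0.1%, each with the higher value at 0.5%, against 10.1% of all genes in either direction. The other counts, each with the percent of all genes, were 0 of 34 at 0.1% against control (5.11%), 8 at 0.5% (7.65%) and 4 at 1.0% (8.92%). Between 1.0% and 0.1% the count was 7 (9.42%) and between 1.0% and 0.5% it was 6 (6.19%). For any difference it was 11 (9.49%) and for the slope 5 (10.9%). The members' median difference from control was -0.16 at 0.1%, 0.18 at 0.5% and 0.05 at 1.0%, beside medians of 0.01, -0.02 and -0.01 over all genes. From 0.1% to 0.5% the median of the members was 0.27 (-0.03 over all genes), with 29 of 34 above 0 against 45.3% of all genes. From 0.5% to 1.0% it was -0.14 (0.01 over all genes), with 10 of 34 above 0 against 51.4% of all genes.

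The counts depended on the 4 arrays apart on the first principal component. Without them, 5 of 34 members had an unadjusted p under 0.05 at 0.1% against control, all lower (Hsph1, Dnaja1, Chordc1, Bag4 and Hspa4l), against 5.94% of all genes. At 0.5% against control the count fell from 8 to 2 (Hspb8 and Hsph1, 5.13% of all genes), and at 1.0% it was 4 (8.11%), all lower. Between 0.5% and 0.1% it was 9 (7.03%), between 1.0% and 0.1% it was 3 (8.28%) and between 1.0% and 0.5% it was 8 (6.35%). For any difference it was 7 (7.74%) and for the slope 2 (8.42%). The members' median became 0.10 at 0.5% against control, -0.09 at 1.0% against control and 0.03 at 1.0% against 0.1%, and it was 0.22 at 0.5% against 0.1%.

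Some single differences also shrank by more than 1.5 times without these arrays. Between 0.5% and 0.1%, Ahsa1 went from 0.43 to 0.28, Hspd1 from 0.31 to 0.14, Hspe1 from 0.23 to 0.10, Dnaja3 from 0.20 to 0.12, Hspb6 from -0.29 to -0.10 and Hsf2 from -0.47 to -0.17. The slope of Hspb1 over dose went from 1.00 to 0.33 per 1% quercetin. The differences of Hspa8, Hsph1, Hspb8, Dnaja1, Hspa1b, Hsp90aa1, Stip1 and Chordc1 between 0.5% and 0.1% kept their sign and shrank by less than that.

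**Figure D1:**
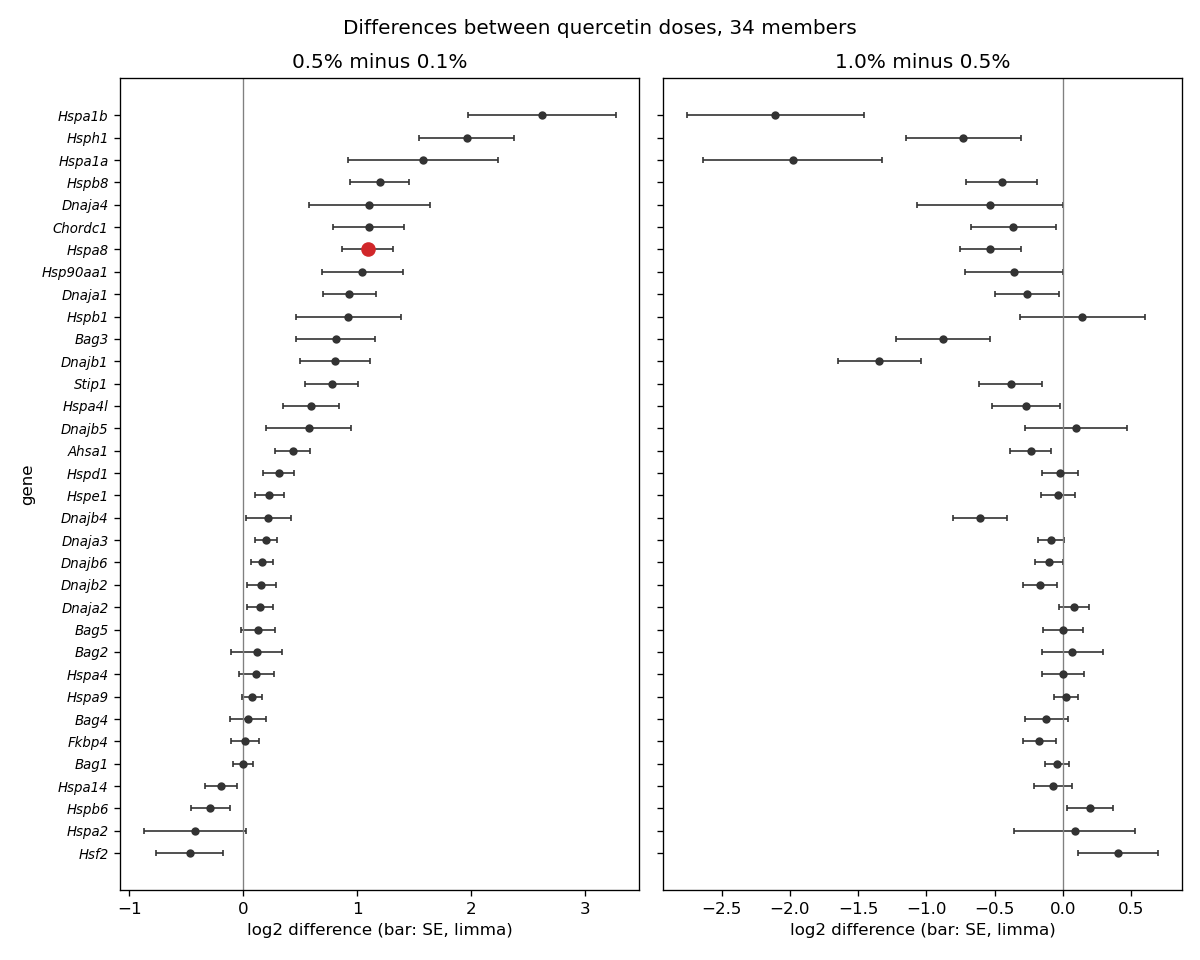
Log2 difference (x axis) with its standard error for each of the 34 members (y axis), at 0.5% minus 0.1% quercetin on the left and 1.0% minus 0.5% on the right. The red point is Hspa8, with an adjusted p of 0.0424. On the left 29 members lie above 0, against 45.3% of all genes, and on the right 10 do, against 51.4%.

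In the HSP70 group, Hspa8 ran from 10.58 to 11.58 in control (median 10.85), from 10.21 to 11.08 at 0.1% (10.52), from 11.10 to 12.29 at 0.5% (11.57) and from 10.51 to 11.51 at 1.0% (11.16). All 6 livers at 0.5% lay above all 6 at 0.1%, while the other diets overlapped both. Its 4 probe sets were all higher at 0.5% than at 0.1%, by 1.02 to 1.10 in 3 and by 0.05 in the other, which had a mean of only 4.23. The call was sensitive to single arrays: it held in 9 of 24 fits that left out 1 array (without control replicate 2 or 5, replicate 4 of the 0.1% group, replicate 2 or 3 of the 0.5% group, or replicate 1, 2, 4 or 5 of the 1.0% group), and not without any one of the other 15. Without the 4 arrays that stood apart the difference was 0.82 (adjusted p = 0.217), and 0 members passed against 0.055% of all genes.

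Hspa1b, an inducible HSP70, differed more between livers of 1 diet than Hspa8 did. It ran from 7.69 to 11.67 in control (median 8.54), from 6.77 to 8.79 at 0.1% (7.93), from 8.78 to 11.95 at 0.5% (10.76) and from 6.93 to 9.84 at 1.0% (8.18). Its difference between 0.5% and 0.1% was 2.62 (SE 0.65, adjusted p = 0.111) and that between 1.0% and 0.5% was -2.11 (SE 0.65, adjusted p = 0.57). Neither passed, and only the lowest 0.5% liver reached into the 0.1% range. Its 3 probe sets gave 2.28 to 2.62 for the first difference and -2.11 to -1.96 for the second.

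Its copy Hspa1a ran from 3.12 to 7.62 in control (median 4.26), from 3.45 to 4.54 at 0.1% (4.21), from 4.15 to 7.43 at 0.5% (5.65) and from 2.44 to 5.25 at 1.0% (3.67). The same 4 livers were the highest for both copies, namely control replicate 2 and replicates 1, 4 and 6 at 0.5%. The difference of Hspa1a between 1.0% and 0.5% was -1.98 (SE 0.66, adjusted p = 0.616). Hspa2, best known from the testis, and Hspa14, a ribosome-bound HSP70, had F-test p-values of 0.76 and 0.301 and no difference between any pair of diets larger than 0.43 in size.

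Among the HSP110 exchange factors, Hsph1 followed Hspa8. It ran from 7.24 to 9.14 in control (median 7.51), from 6.54 to 7.59 at 0.1% (6.81), from 7.92 to 10.01 at 0.5% (8.94) and from 7.28 to 9.82 at 1.0% (7.80). The 0.5% and 0.1% livers did not overlap, with a difference of 1.96 (SE 0.42, adjusted p = 0.052). Its 2 probe sets gave 1.96 and 2.01. The related Hspa4l was 0.59 higher at 0.5% than at 0.1% (SE 0.25, adjusted p = 0.403), and Hspa4, the constitutive HSP110, stayed within 7.37 to 8.67 over the 24 livers with an F-test p of 0.816.

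Small heat shock proteins hold unfolded proteins without using ATP. Hspb8, which works with BAG3 in the removal of misfolded proteins, had the smallest F-test p of the members, 0.000593 (adjusted p = 0.119). It ran from 7.83 to 8.53 in control (median 7.96), from 7.56 to 8.13 at 0.1% (7.81), from 8.27 to 9.83 at 0.5% (8.86) and from 7.82 to 9.22 at 1.0% (8.51). All livers at 0.5% were above those at 0.1%, and the difference was 1.20 (SE 0.26, adjusted p = 0.0572). Of its 3 probe sets, 1 went the other way, at -0.41.

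Hspb1, the mouse HSP27, ran from 4.91 to 7.05 in control (median 5.09), from 4.38 to 5.75 at 0.1% (5.26), from 5.17 to 7.05 at 0.5% (6.02) and from 5.11 to 7.79 at 1.0% (5.87). Its highest liver was at 1.0%, and the slope over dose was 1.00 per 1% quercetin (SE 0.41, adjusted p = 0.368). Hspb6, a small heat shock protein best known in muscle, ran from 4.84 to 5.92 over all livers and was 0.29 lower at 0.5% than at 0.1% (SE 0.17, adjusted p = 0.592).

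The only HSP90 gene among the measured members, Hsp90aa1, is the stress-inducible cytosolic form. Its values were chosen for display after they were seen, as were those of Stip1, Ahsa1 and Bag3 below. It ran from 9.26 to 10.82 in control (median 9.52), from 9.18 to 9.90 at 0.1% (9.40), from 9.82 to 11.32 at 0.5% (10.40) and from 9.07 to 11.54 at 1.0% (10.08). The difference between 0.5% and 0.1% was 1.05 (SE 0.36, adjusted p = 0.29), and the 1.0% livers lay on both sides of the 0.5% median. The sign turned to -0.40 with its most variable probe set, which had a mean of 1.57.

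HSP90 works with cochaperones that load clients or drive its ATPase. Chordc1, a cochaperone with CHORD domains, ran from 7.20 to 8.18 in control (median 7.55), from 6.76 to 7.55 at 0.1% (7.06), from 7.45 to 8.90 at 0.5% (8.25) and from 6.86 to 8.92 at 1.0% (7.80), and its difference between 0.5% and 0.1% was 1.10 (SE 0.31, adjusted p = 0.191). Stip1, which links HSP70 to HSP90, did not overlap between 0.1%, where it was at most 6.56, and 0.5%, where it was at least 6.66, a difference of 0.77 (SE 0.23, adjusted p = 0.213). Ahsa1, an activator of the HSP90 ATPase, also did not overlap, with at most 8.34 and at least 8.38 and a difference of 0.43 (SE 0.15, adjusted p = 0.298). Its second probe set, with a mean of 2.73, gave -0.86. Fkbp4, a cochaperone of steroid receptors, showed no such pattern, with 0.02 (SE 0.12, adjusted p = 0.979).

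Together 6 members (Hspa8, Hsph1, Hspb8, Dnaja1, Stip1 and Ahsa1) had every 0.5% liver above every 0.1% liver, against 0.561% of all genes. The J protein among them, Dnaja1, starts HSP70 cycles in the cytosol. It ran from 9.68 to 10.60 in control (median 9.87), from 9.39 to 9.87 at 0.1% (9.61), from 10.08 to 11.18 at 0.5% (10.43) and from 9.74 to 11.27 at 1.0% (10.09). The difference between 0.5% and 0.1% was 0.93 (SE 0.23, adjusted p = 0.119), and its 3 probe sets gave 0.88 to 1.14.

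**Figure D2:**
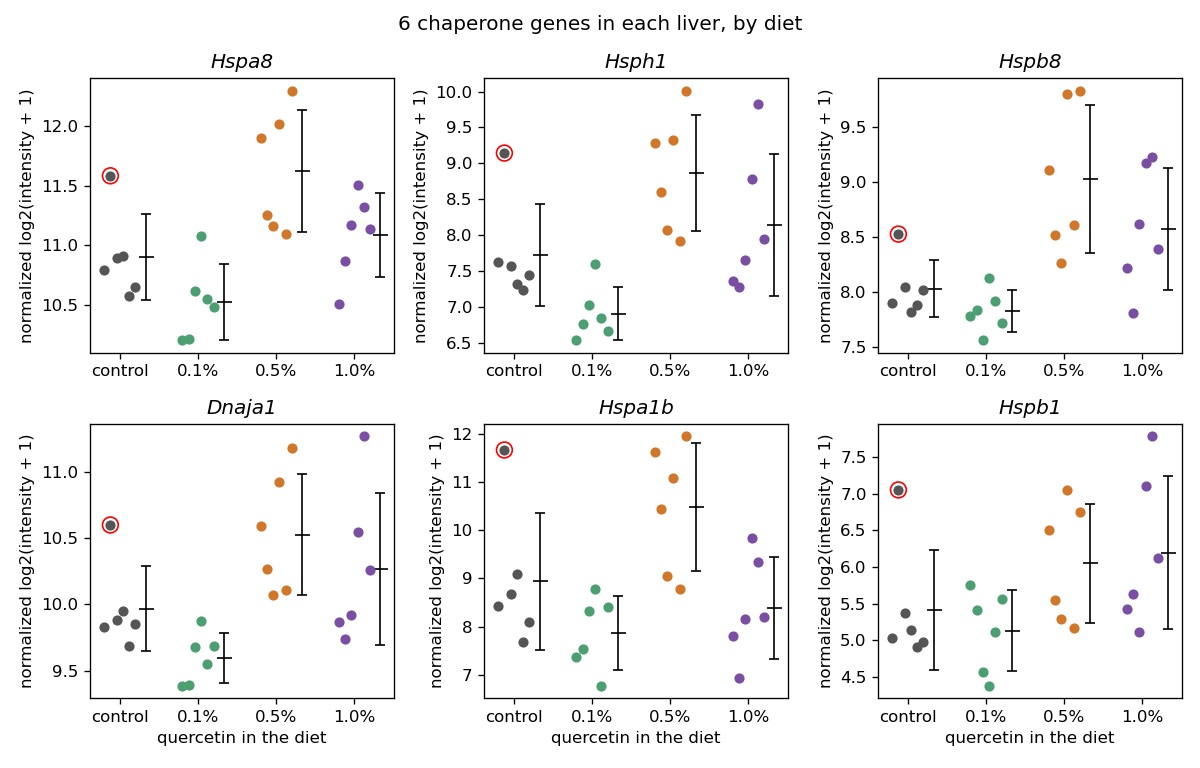
Normalized log2(intensity + 1) (y axis) of 6 members in each of 24 livers by diet (x axis), 6 points a diet, with the mean and SD beside them and control replicate 2 circled in red. Hspa8, Hsph1, Hspb8 and Dnaja1 show no overlap between 0.5% and 0.1%, and control replicate 2 is the highest control liver in all 6 genes.

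Other J proteins were mixed. Dnajb4, a relative of Dnajb1, ran from 6.82 to 8.32 in control (median 7.54), from 6.80 to 7.52 at 0.1% (7.32), from 7.13 to 8.07 at 0.5% (7.39) and from 6.70 to 7.17 at 1.0% (6.79). The 1.0% livers were the lowest group, at -0.65 against control (SE 0.20, adjusted p = 0.365) and -0.60 against 0.5% (SE 0.20, adjusted p = 0.606), and overlapped the other diets. Dnaja2, Dnajb2, Dnajb5, Dnajb6 and Dnaja4 had F-test p-values from 0.258 to 0.546. Of these, Dnaja4 was 1.11 higher at 0.5% than at 0.1%, and its 3 probe sets gave 0.78 to 1.11. It varied widely at 0.1%, where its lowest liver was at 1.17, and it did not pass.

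Dnajb1, the J protein also called HSP40, could not be given 1 pattern because its 2 probe sets disagreed at 1.0%. The first probe set, used in the fits, ran from 6.90 to 9.03 in control (median 7.29), from 6.60 to 7.41 at 0.1% (6.94), from 6.97 to 8.75 at 0.5% (7.85) and from 6.06 to 6.64 at 1.0% (6.43). By this probe set all 1.0% livers lay below all control livers, as for 0.396% of all genes, with a difference of -1.14 (SE 0.30, adjusted p = 0.319). They also lay below all 0.5% livers, as for 0.0934% of all genes, with -1.34 (SE 0.30, adjusted p = 0.315). Dnajb1 was the only member with groups apart in either comparison.

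The second probe set of Dnajb1 ran from 6.28 to 8.35 in control (median 6.74), from 6.28 to 6.46 at 0.1% (6.38), from 6.61 to 8.98 at 0.5% (7.61) and from 6.42 to 8.52 at 1.0% (6.85). It gave 0.20 for 1.0% against control (SE 0.40, adjusted p = 0.953), so the sign of that difference turned with the probe set. Against 0.5% it gave -0.53 (SE 0.40, adjusted p = 0.948), the same sign as the first probe set but with overlapping livers. At 0.5% against 0.1% both probe sets were higher, by 0.81 in the first and by 1.29 in the second (SE 0.40, adjusted p = 0.345). Within each array the second minus the first ran from -0.73 to -0.30 in control and from -1.13 to -0.25 at 0.1%. It ran from -0.89 to 1.19 at 0.5% and from 0.00 to 2.47 at 1.0%. The 2 probe sets thus parted in every 1.0% liver relative to every control liver, most in replicate 5 (2.47) and replicate 4 (1.27), and in replicate 6 of the 0.5% group (1.19). This split was noticed after the values were seen. Both probe sets carry the same transcript accession in the platform annotation, and the cause was not tested.

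**Figure D3:**
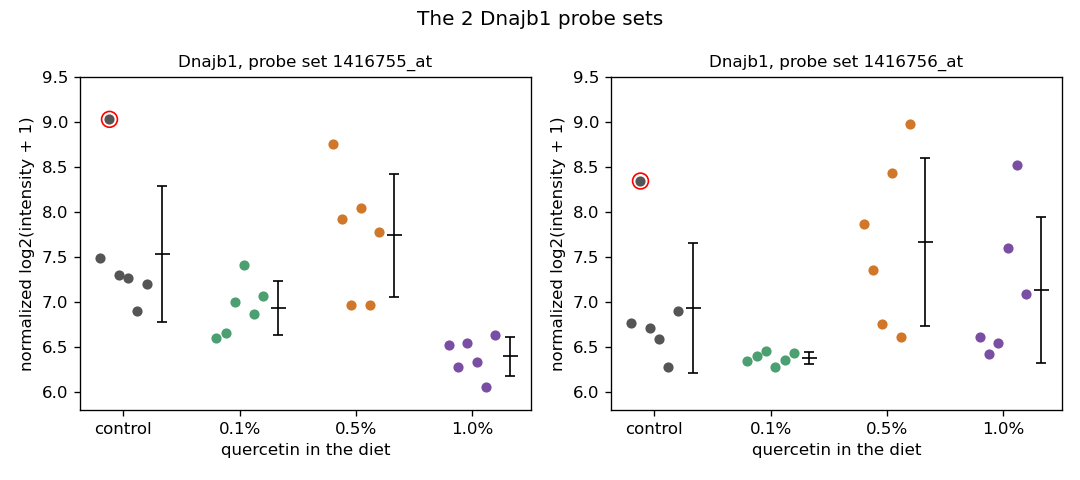
Normalized log2(intensity + 1) (y axis) of the 2 Dnajb1 probe sets in each liver by diet (x axis), 6 points a diet, with the mean and SD beside them and control replicate 2 circled in red. The 1.0% livers lie between 6.06 and 6.64 by the first probe set and between 6.42 and 8.52 by the second.

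BAG proteins end HSP70 cycles by nucleotide exchange. Bag3, the stress-inducible member, ran from 5.57 to 7.65 in control (median 5.97), from 5.37 to 6.12 at 0.1% (5.74), from 5.76 to 7.68 at 0.5% (6.29) and from 5.36 to 6.46 at 1.0% (5.52). The difference between 1.0% and 0.5% was -0.88 (SE 0.35, adjusted p = 0.726), with overlapping livers. Bag1, Bag2, Bag4 and Bag5 had F-test p-values from 0.103 to 0.918, and the 24 livers held Bag1 within 7.61 to 8.15.

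Differences between diets were small for the mitochondrial chaperones, the largest at 0.31. Hspd1, the HSP60 chaperonin, ran from 10.35 to 10.83 in control (median 10.67), from 10.26 to 10.59 at 0.1% (10.52), from 10.52 to 11.14 at 0.5% (10.67) and from 10.55 to 11.27 at 1.0% (10.67). Its partner Hspe1 ran from 9.98 to 10.31 in control (median 10.18), from 10.08 to 10.21 at 0.1% (10.15), from 9.98 to 10.75 at 0.5% (10.41) and from 10.03 to 10.81 at 1.0% (10.30). Hspa9, the mitochondrial HSP70, and Dnaja3, its J protein, stayed within 9.35 to 9.93 and 7.93 to 8.53. The differences of the 4 genes between 0.5% and 0.1% were 0.31, 0.23, 0.07 and 0.20 in this order, and none passed the test. Single livers differed more: Hspd1 and Hspe1 were both highest in replicate 5 at 1.0%. In that group both had replicates 4 to 6 above replicates 1 to 3 with no overlap, as for 7.1% of all genes.

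The transcription factor Hsf2, whose signal lay at the 38.5th percentile of all genes, ran from 2.49 to 3.24 in control (median 2.95), from 2.33 to 3.10 at 0.1% (2.94), from 0.82 to 3.03 at 0.5% (2.60) and from 1.82 to 3.33 at 1.0% (2.84). Its F-test p was 0.273, and its difference between 0.5% and 0.1% was -0.47 (SE 0.30, adjusted p = 0.623).

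Control replicate 2 stood above the other 5 control livers in 24 of 34 members and was the highest of all 24 livers in 5. It lay 1 or more above the median of the other controls in 8 members. The shares of all genes for these counts were not computed. The liver was singled out because members were high in it, so the counts restate that choice. The largest gaps to the next control liver were 2.88 for Hspa1a, 2.56 for Hspa1b, 1.68 for Hspb1, 1.54 for Dnajb1 and 1.51 for Hsph1. Hspa1b in this liver was 9.47-fold above the median of the other controls, while Hspd1 was 1.12-fold above it. Hsf2 and Bag5 were below all other controls. This liver was not apart on the first principal component, and the median of 10 immediate early genes, which respond fast to stress and handling, was -0.09 against the other controls. The median of 13 chaperones of the endoplasmic reticulum was 0.31 above the other controls. This liver had the highest control value of the summed signal for those genes and for the chaperonin and prefoldin subunits. The same held for the lists of other HSP90 cochaperones, other HSP70 partners and other genes linked to heat shock factors. It also held for hepatocyte, stellate cell, lymphocyte and adipocyte markers. The sum was the lowest of the controls for mitochondrial partners and for Kupffer cell, sinusoidal endothelial, neutrophil and red cell markers. The part of these lists in the members' values was not tested.

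Leaving control replicate 2 out changed several counts. This liver was singled out because several members were high in it. Dropping it therefore lowers the top and the spread of the control group for those members by construction. The liver was not chosen for the other genes, so the shares of all genes are not a like yardstick. At 0.5% against control, 6 members (Hspa8, Hsph1, Hspb8, Hsp90aa1, Dnaja1 and Stip1) then had groups that did not overlap, all higher at 0.5%, against 0.528% of all genes, where there had been 0. The count at an unadjusted p under 0.05 became 13 of 34 (7.89% of all genes), and at 1.0% against control it became 6 (8.33%), but 0 passed after adjustment. In that fit Hspa8 was 0.85 above control at 0.5% (SE 0.22, adjusted p = 0.312) and Hspb8 1.09 (SE 0.27, adjusted p = 0.312). At 0.1% the number of members above control went from 4 to 9 of 34, beside 52.3% and 51.8% of all genes. The members' median there went from -0.16 to -0.08.

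The array also entered the comparisons between doses through the shared estimate of the spread, so the counts here carry the same limit. Without it, 3 members were called higher at 0.5% than at 0.1%, against 0.247% of all genes: Hspa8 (adjusted p = 0.0351), Hsph1 (adjusted p = 0.0351) and Hspa1b (adjusted p = 0.0448). At 1.0% against 0.5%, Dnajb1 by its first probe set then passed as lower (adjusted p = 0.03), against 0.044% of all genes.

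**Figure D4:**
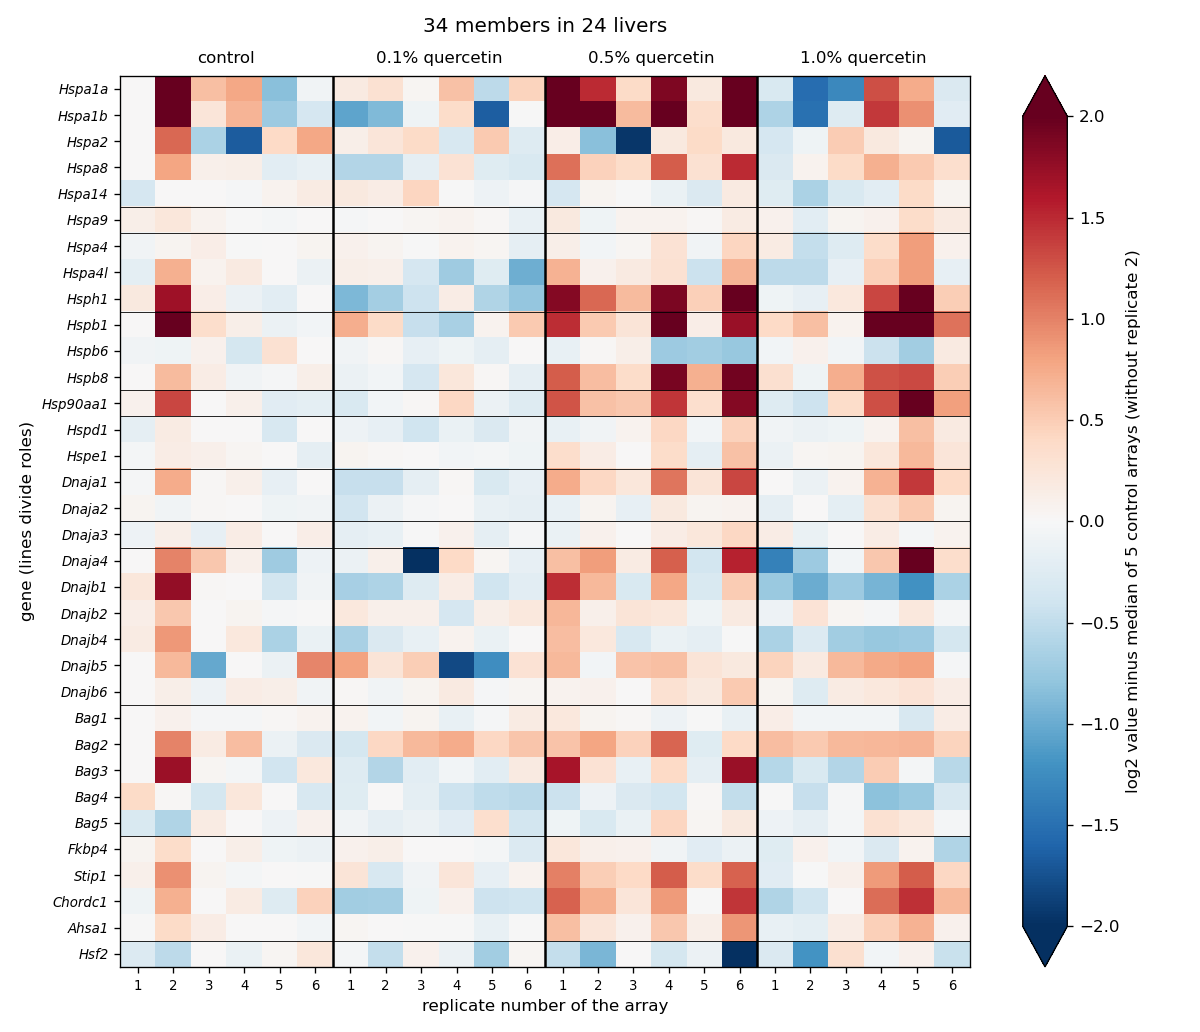
Log2 value of each of 34 members (rows, ordered by role) in each of 24 arrays (columns, by diet and replicate) minus the median of the 5 control arrays other than replicate 2, with colours ending at -2 and 2. Control replicate 2, replicates 1, 4 and 6 at 0.5% and replicates 4 and 5 at 1.0% are red in many rows, and Dnajb1 and Dnajb4 are blue at 1.0%.

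By liver, the median of the members was highest in 6 arrays. Over the 5 other controls it was 0.64 in control replicate 2, 0.60, 0.41 and 0.49 in replicates 1, 4 and 6 at 0.5%, and 0.34 and 0.57 in replicates 4 and 5 at 1.0%. In the other 18 livers it lay between -0.17 and 0.13. That median includes members that hardly varied. In replicates 2, 3 and 5 at 0.5%, where it was 0.13, 0.08 and 0.02, Hspa8 was still 0.46, 0.37 and 0.30 above the other controls and Hsph1 1.16, 0.63 and 0.48 above them. Replicate 2 at 0.5% also had Hspa1b 2.02 and Hspa1a 1.49 above them. Of the 6 arrays, 4 were those apart on the first principal component, and replicate 1 at 0.5% had the high 18S signal.

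Within the 1.0% group, 14 of 34 members had replicates 4 to 6 above replicates 1 to 3 with no overlap, against 7.1% of all genes. The reverse was seen in 0 members, against 10.1% of all genes. Hsp90aa1 ran from 9.07 to 9.86 in replicates 1 to 3 and from 10.29 to 11.54 in replicates 4 to 6. Chordc1 ran from 6.86 to 7.48 and from 8.12 to 8.92. In the control, 0.1% and 0.5% groups the numbers of members with replicates 4 to 6 apart were 0, 1 and 4 above and 4, 4 and 3 below. Over all genes the shares were 5.92%, 5.28% and 5.6% above and 4.73%, 5.47% and 8.48% below. The labels do not say what replicate numbers stand for, and the split was described after the values were seen.

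Other gene groups were high in some of these arrays. The median of the endoplasmic reticulum chaperones over the other controls was above 0 in all 6, at 0.31 in control replicate 2, 0.34, 0.20 and 0.86 in replicates 1, 4 and 6 at 0.5%, and 0.33 and 0.21 in replicates 4 and 5 at 1.0%. In the other 18 arrays it ran from -0.34 to 0.26. The immediate early median over the other controls was 1.79 and 1.36 in replicates 4 and 6 at 0.5%, 0.67 in replicate 5, and 0.09 in replicate 1, where the members' median was the highest of the group. Of 5 neutrophil markers, 4 were measured. Their summed intensity ran from 32.4 to 66.2 in control, 41.0 to 59.0 at 0.1%, 46.4 to 311.7 at 0.5% and 39.2 to 123.4 at 1.0%, and no measured marker was at 0. In control replicate 2 this sum was 32.4, the lowest of the controls. Of 5 adipocyte markers, 3 were measured. Their sum ran up to 116.2 in control, 119.9 at 0.1%, 157.5 at 0.5% and 432.6 at 1.0%. It came almost wholly from Fabp4, since Adipoq and Lep lay at the 7.99th and 2.28th percentiles of all genes. The sum of 5 Kupffer cell markers stayed within 478.4 to 627.1. In bulk tissue, fewer cells of a type and less RNA per cell cannot be told apart. The part of other cells, 18S signal, endoplasmic reticulum chaperones or immediate early genes in the chaperone values was not tested.

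The rest of the chaperone system was read from lists of other genes, none of whose members passed in any comparison. Beside the counts that follow, 45.3% of all genes were higher at 0.5% than at 0.1%, and 51.4% were higher at 1.0% than at 0.5%. Of 13 other HSP90 cochaperones, 6 were higher at 0.5% than at 0.1%, with a median of -0.02. The exception in size was Fkbp5, a cochaperone induced by glucocorticoids, at 1.52 (SE 0.52, adjusted p = 0.29), or 0.64 without the 4 arrays apart, and the next by F-test, Ttc4, was at -0.31. Of 14 other J proteins and HSP70 partners 6 were higher (median -0.07), with Dnajc7 at -0.11 and Dnajb14 at 0.18.

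The cytosolic chaperonin TRiC and prefoldin, which fold actin and tubulin, had 10 of 13 subunits higher at 0.5% than at 0.1%, by a median of only 0.10, with Cct3 at 0.17 and Pfdn2 at 0.27. Of 8 mitochondrial partners 1 was higher (median -0.08), with the protease subunit Clpx at -0.48 and the exchange factor Grpel2 at -0.10. Of 8 other genes linked to heat shock factors 6 were higher (median 0.39), with Hspb7 at 0.92 and Dedd2 at 0.46. Of 10 immediate early genes 8 were higher (median 0.88), with Jun at -0.68 and Junb at 1.27.

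Chaperones of the endoplasmic reticulum, which are driven by the unfolded protein response, were highest at 0.5% and lowest at 1.0% by the median over livers. At 0.5% against 0.1%, 10 of 13 were higher, by a median of 0.30 (0.16 without the 4 arrays apart), led by Creld2 at 1.62 (SE 0.38, adjusted p = 0.0796). At 1.0% against 0.5%, 0 of 13 were higher (median -0.30) and 7 had an unadjusted p under 0.05, against 6.19% of all genes, with Pdia4 at -0.49 and Creld2 at -0.74, while 0 passed after adjustment. The smallest adjusted p in that comparison was 0.587.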

How the data were processed

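Liver RNA of 24 mice was measured with 1 Affymetrix array each. The authors deposited a table of linear intensity values for 45101 probe sets. How the authors corrected background and summarised probes, and with what software, is not given in the sources used here, so its effect on dim genes is unknown. Of the probe sets, 34945 had 1 gene symbol in the platform annotation, 932 had several, 9160 were unlisted or had none, and 64 controls were left out. Values were taken as log2(value + 1) and quantile-normalized, and for each of 18193 genes the probe set of highest mean was kept. The pseudocount understates changes of dim genes. All genes were fitted in limma 3.58.1 (R 4.3.3, eBayes) with the 4 diets as groups, or with dose as a number, in two-sided tests, and the adjusted p-values cover all genes. Each array is 1 mouse. Promoters came from RefSeq (GRCm38.p6), matched by symbol for 30 of 36 members. The fit was tested on simulated data.

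The members and gene lists were chosen with earlier results of these data known. Every measured member was named. Values by diet were given for the 8 members with the smallest F-test p, the 5 highest in control replicate 2, the 3 brightest and Hsf2, and for those stated as chosen after their values were seen. The 2 genes with the smallest F-test p were named from each list. Alternatives covered normalization, a pseudocount of 16, dim genes, the probe set, array weights, the empirical Bayes options, a replicate block, replicate sets, fits with 2 groups and arrays left out. Marker lists of stellate, endothelial, bile duct, lymphoid, muscle and red cells had 0 genes passing in any comparison.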

Additional observations from a re-analysis of the deposited data

Results flagged for a closer look

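Within a diet, a liver was singled out for a member when its gap to the nearest other liver divided by the group's range exceeded Dixon's critical value for 6 values. Of 136 groups of 6 livers, 18 met this (13.2%), while chance gives about 1 in 20. Control replicate 2, a liver already singled out when the members were chosen, was the high one in 12 of them, so these restate that observation. The other 6 of 136 (4.41%) are at about the rate chance gives. The gap as a share of the range was 0.641 for Hspa1a, 0.645 for Hspa1b, 0.668 for Hspa8, 0.793 for Hsph1 (9.14 against 7.63 in the next control), 0.784 for Hspb1, 0.686 for Hspb8 and 0.793 for Hsp90aa1. It was 0.706 for Dnaja1, 0.721 for Dnajb1, 0.722 for Dnajb2, 0.714 for Bag3 and 0.839 for Stip1. The members share this liver, so the 12 are not independent.

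The other 6 were low values. Hspa14 was low in control replicate 1 (0.628). In the 0.1% group, Hspa4 was low in replicate 6 (0.639), Dnaja4 in replicate 3 (0.832, at 1.17 against 3.97 in the next liver), Dnajb2 in replicate 4 (0.787), Bag2 in replicate 1 (0.704) and Ahsa1 in replicate 5 (0.738).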

How the results depend on the processing

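The number of members passing at 0.5% against 0.1%, 1 in the fit reported, was the least stable result. It was 3 with arrays centred on their medians, with array weights, with trend and robust eBayes and with replicates 1 to 3 against 4 to 6 as a term, and 5 with a pseudocount of 16 and without dim genes. It was 0 with the mean of all probe sets, with the most variable probe set and without the 4 arrays apart on the first principal component, and 0 to 4 with 1 array left out. With the replicate block it was 0 as well (Hspa8 adjusted p = 0.0665). Over all genes, same-numbered arrays did not deviate together (correlations of -0.06 to 0.11, 1 of 36 over 0.1, and 4 of 24 arrays closest to one of their own number). Such correlations cannot show a pairing that acts on few genes, and that was not tested. For any difference among the diets, 2 members passed with a pseudocount of 16 and 2 without dim genes. At 1.0% against 0.5% the count was 0 to 1 with 1 array left out. The members' median at 0.5% against control moved from 0.18 to 0.39 with no normalization between arrays. The signs of 4 values turned with the probe set, and the cause was not tested. Ahsa1 at 0.5% against 0.1% was -0.21 with the mean of all probe sets and -0.86 with the most variable one, Hsp90aa1 was then -0.40, and Dnajb1 at 1.0% against control was 0.20. The most variable probe sets of Ahsa1 and Hsp90aa1 were dim, with means of 2.73 and 1.57, and that of Dnajb1 was not, at 7.03. The adjusted p of Hspa8 ranged from 0.0131 to 0.989 over 35 alternatives and passed in 15. These include changes of probe set, and the dimmest Hspa8 probe set, with a mean of 4.23, differed by only 0.05.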
